A study of Rattus norvegicus with 30 samples.

Results

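Lipoprotein lipase and the genes of fat uptake around it were followed through liver RNA of 3 animal models. The set holds 8 genes, measured by 9 of the 30367 probes of a rat array: Lpl, Gpihbp1, Cd36, Vldlr, Angptl4, Lipc, Fabp4 and Plin2. They stand for 8 of 26912 genes and unnamed transcripts, and were chosen for the strong rise of Lpl in the livers of mice that carry transplanted rat hepatocytes. The values show that rise on a diet with phenobarbital (PB), so the PB values of the chimeric mice are given below as a description and without a test.

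All animals were male, and liver was taken after 7 days on diet containing 0 or 1000 ppm PB, a barbiturate that raises drug-metabolising enzymes. Crl:CD(SD) rats are outbred and are named SD rats below; 4 were measured per diet. Rats labelled CAR KO, with a knockout of the constitutive androstane receptor encoded by Nr1i3, were also measured 4 per diet. Chimeric mice were measured 7 per diet, and their livers hold mouse host cells besides the transplanted rat hepatocytes. The labels call the arrays biological replicates. They do not give the host strain, the share of rat cells, the ages or the part of Nr1i3 that is deleted.

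Lipoprotein lipase is an enzyme on the wall of capillaries that splits the triglyceride of chylomicrons and very low density lipoprotein. It is made mainly by adipose tissue, muscle and heart, and adult hepatocytes make little of it. GPIHBP1 carries it across endothelial cells, ANGPTL4 inhibits it, and the freed fatty acids enter cells with the help of CD36 and are stored in droplets coated by proteins such as perilipin 2.

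Levels are log2 of the scanner's processed signal minus the 75th percentile of that signal on the array, so 0 is the signal that 75% of the probes on an array lie under and 1 unit is a doubling. Levels of different genes come from different probes and are not compared with each other. The signal at that percentile was 443 ± 20.4 for SD controls and 506 ± 23.9 for CAR KO controls (SD, n = 4 each), against 280 ± 39.3 for chimeric controls (SD, n = 7). On average 64.1%, 65.9% and 55.3% of probes were well above background in these 3 groups, so fewer dim genes were measured in chimeric livers. All SD arrays lay on 1 slide and all CAR KO arrays on another, and within each of these slides the control arrays lay in row 1 and the PB arrays in row 2. Slide and rat model, and slide row and diet, therefore cannot be told apart in rats. The chimeric arrays lay on 2 further slides, so slide and model cannot be told apart between chimeric livers and rats either. All 12 fixed hepatocyte markers were well above background on every array. Of 8 adipocyte markers, 5 were above it on every SD control array, 6 on every CAR KO control array and 3 on every chimeric control array. Of these markers, Adipoq was above background on no array. Both Nr1i3 probes read alike in the 2 rat models, the brighter one at 0.69 to 1.35 in CAR KO controls against 0.76 to 1.88 in SD controls. Since the deleted part is not given, these probes do not check the label.

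Lpl was low in control rats, higher in SD rats on PB, and below background in chimeric mice on control diet but bright in those on PB. In SD controls its level was -3.64, -3.44, -3.46 and -4.24 on the 4 arrays. In SD rats on PB it was -2.32, -2.57, -1.93 and -3.19. Every PB array lay above every control array. The difference was 1.20 ± 0.280 on the log2 scale (SE, n = 4 and 4, a 2.29-fold higher level), with limma's adjusted p = 0.0282 over 17009 genes tested. Of all genes tested, 4.3% were called in this comparison and 2.5% were called higher. The call rests on few arrays: with each array left out in turn it held in 3 of 8 cases, and it was lost without SD control replicate 1 (or 4) or without SD PB replicate 1 (or 2, or 3), with adjusted p from 0.0104 to 0.0830 over the 8 cases. It was also lost when only the 8 SD arrays were fitted (adjusted p = 0.0933) or all 30 arrays (adjusted p = 0.139), while the value stayed at 1.20. With a normexp background correction, whose offset of 50 is added to every signal, the value was 0.56.

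Adipocyte markers, 8 genes on the array with Fabp4 among them, had a mean level of -3.08 to -2.68 over SD control arrays and -2.82 to -2.49 over those on PB. Of the 8, 5 were above background on every SD control array and 4 on every SD PB array. Adipoq was above background in neither group and Lep in none of the controls, and the part of such cells in the result was not tested.

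In CAR KO controls Lpl stood at -3.62, -3.40, -3.18 and -4.11. In CAR KO rats on PB it stood at -3.89, -3.45, -4.15 and -3.33, and the diets overlapped. The difference was -0.13 ± 0.281 (SE, n = 4 and 4) with a 95% interval from -0.73 to 0.47 and adjusted p = 0.865 by limma, in a comparison where 0.205% of 17551 genes were called. The response of CAR KO rats minus that of SD rats was -1.32 ± 0.398, with adjusted p = 0.169 by limma, so a difference between the models' responses was not called for Lpl. In that comparison 0.533% of genes were called.

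In chimeric mice on control diet the Lpl probe was well above background on 0 of 7 arrays. Its signal there ran from -7.01 to -4.60 with a median of -5.94. In chimeric mice on PB it was above background on 7 of 7 arrays, from -0.61 to 0.42 with a median of -0.06. The groups did not overlap, and the level on PB was at least 41.1-fold higher. For this bound each control signal was raised, where lower, to the lowest signal above background on its array. With the normexp correction the difference was 2.32 on the log2 scale, a smaller fold than that bound, so the size of the rise depends on the background correction. The 8 adipocyte markers had a mean level of -4.53 to -3.998 over the chimeric control arrays and -4.37 to -3.88 over those on PB. Of the 8, 3 were above background on every control array and 3 on every PB array, while Adipoq, Cfd, Lep and Retn were on none of the 14. In this comparison 42.7% of 14445 genes were called and 19.3% were called higher, and nothing is read from that for genes chosen on it. All 7 control arrays lay on 1 slide with PB replicate 1, while the other 6 PB arrays lay on a second slide. PB replicate 1 stood at 0.41, which was 6.32 above the mean signal of the controls of its own slide, and the 6 on the other slide ran from -0.61 to 0.42.

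In order of group means, Lpl was highest in chimeric mice on PB (-0.05 ± 0.374, SD, n = 7) and next in SD rats on PB (-2.50 ± 0.529, SD, n = 4). CAR KO controls (-3.58 ± 0.398), SD controls (-3.70 ± 0.377) and CAR KO rats on PB (-3.70 ± 0.384, SD, n = 4 each) followed within their spread. CAR KO minus SD on control diet was 0.12 ± 0.281 (adjusted p = 0.769 by limma). Chimeric controls were last, and their mean is only a bound. On control diet, Lpl in SD rats was at least 3.27-fold higher than in chimeric livers and in CAR KO rats at least 3.56-fold higher. This order on control diet depends on the background correction, because with a normexp correction the chimeric livers stood 0.0073 and 0.080 above the SD and CAR KO rats on the log2 scale. In bulk liver, fewer cells of a type and less RNA per cell cannot be told apart.

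**Figure D1:**
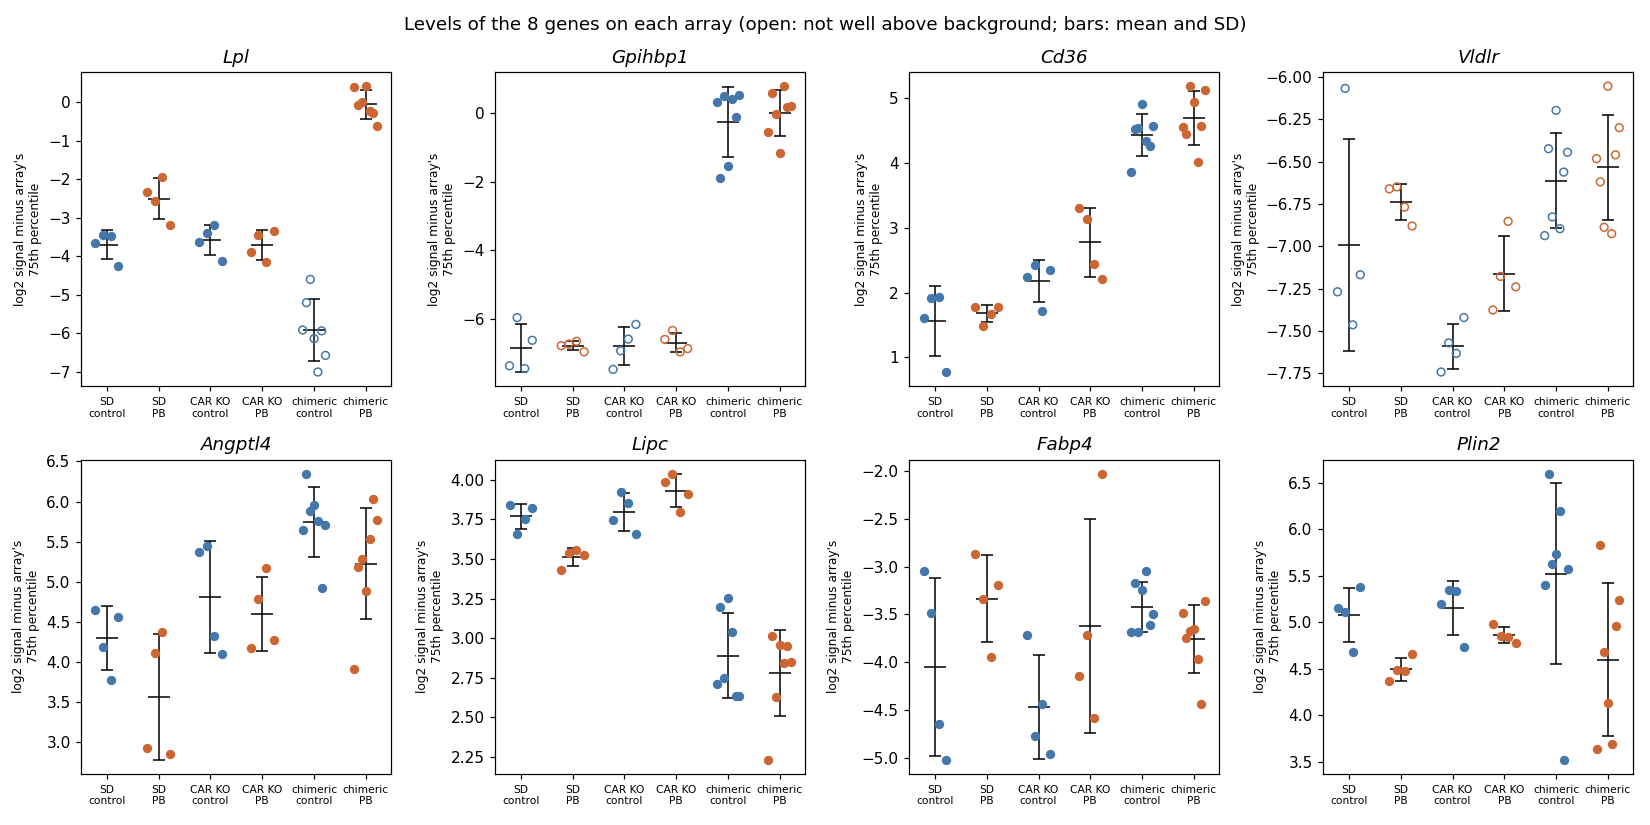
Level of each of the 8 genes on every array by group (y axis, log2 of processed signal minus the array's 75th percentile, with its own range for each gene; x axis, model and diet; bars, mean and SD). Open points are arrays on which the probe was not well above background: Lpl is open on 7 of 7 chimeric control arrays and filled on 7 of 7 chimeric PB arrays, and Vldlr is open on all arrays.

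Gpihbp1, the endothelial protein that binds lipoprotein lipase, was read in chimeric livers and in no rat liver. It was well above background on 7 of 7 chimeric control arrays, from -1.88 to 0.51 with a median of 0.33. On the 7 chimeric PB arrays it ran from -1.15 to 0.78 with a median of 0.17. The diets overlapped. In rats it was above background on 0 of 4 arrays in each of the 4 groups, with signals from -7.47 to -5.96. The level in chimeric controls was at least 63.5-fold higher than in SD controls. It entered the comparison through the chimeric arrays alone, so no test is given, and 74.6% of the 17160 genes compared were called. Against CAR KO controls it was at least 74.98-fold higher, and on PB diet at least 55.6-fold higher than in SD rats and at least 74.9-fold higher than in CAR KO rats. With the normexp correction the difference from SD controls was 2.85 on the log2 scale, again a smaller fold.

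The mean level of the endothelial markers went the other way. Of 9 endothelial markers on the array, 8 were above background on every SD control array, all but Gpihbp1. In chimeric controls 5 of the 9 were above background on every array, and Tek and Tie1, receptors of endothelial cells, were on none. The mean level of the 9 markers ran from -0.93 to -0.67 over SD control arrays and from -2.63 to -1.62 over chimeric control arrays. Of 13 macrophage markers, 13 were above background on every SD control array and 8 on every chimeric control array, with Marco, C1qc and Aif1 on none. Host cells of the chimeric livers are of mouse, and whether a signal comes from rat or mouse RNA cannot be told apart with these rat probes; how mouse RNA binds to them was not tested.

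Promoters were available for 5 of the 8 members and are shown for the 4 that passed a test in rats, so that their sequence can be set beside their levels. Each is 300 bases from RefSeq (GRCr8), from 250 bases before the annotated start of transcription to 50 after it, written 5′ to 3′ on the gene's own strand. Capitals mark matches, on either strand, to the core motif of nuclear receptors (AGGTCA), an E-box (CACGTG) and a TATA box (TATAAA). Plin2 has 2 annotated starts, and both are given.
Plin2 start 1, chr5:106228969-106229268, minus strand: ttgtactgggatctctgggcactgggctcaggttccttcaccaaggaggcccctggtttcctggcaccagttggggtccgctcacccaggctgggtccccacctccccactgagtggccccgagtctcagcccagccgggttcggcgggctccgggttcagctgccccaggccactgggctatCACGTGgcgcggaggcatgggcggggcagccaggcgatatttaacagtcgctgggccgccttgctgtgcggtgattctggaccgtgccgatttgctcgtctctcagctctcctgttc
Plin2 start 2, chr5:106228488-106228787, minus strand: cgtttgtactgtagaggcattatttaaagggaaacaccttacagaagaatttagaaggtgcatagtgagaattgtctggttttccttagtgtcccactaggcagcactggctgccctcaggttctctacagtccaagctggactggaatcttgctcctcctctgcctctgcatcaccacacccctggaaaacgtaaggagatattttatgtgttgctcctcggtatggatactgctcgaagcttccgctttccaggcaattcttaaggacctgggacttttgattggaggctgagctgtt
Lipc, chr8:80516236-80516535, minus strand: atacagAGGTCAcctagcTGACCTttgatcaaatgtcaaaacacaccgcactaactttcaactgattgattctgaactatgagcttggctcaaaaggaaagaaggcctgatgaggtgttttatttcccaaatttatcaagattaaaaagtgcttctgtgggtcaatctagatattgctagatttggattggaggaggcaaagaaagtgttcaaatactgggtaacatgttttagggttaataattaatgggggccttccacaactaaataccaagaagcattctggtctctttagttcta
Angptl4, chr7:15258632-15258931, minus strand: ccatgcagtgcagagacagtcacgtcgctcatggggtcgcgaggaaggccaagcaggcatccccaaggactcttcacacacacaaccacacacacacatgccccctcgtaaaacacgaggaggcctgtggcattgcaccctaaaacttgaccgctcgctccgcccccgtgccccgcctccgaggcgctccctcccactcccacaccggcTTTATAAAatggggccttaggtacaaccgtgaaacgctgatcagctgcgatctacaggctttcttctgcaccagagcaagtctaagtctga
Cd36, chr4:18246332-18246631, plus strand: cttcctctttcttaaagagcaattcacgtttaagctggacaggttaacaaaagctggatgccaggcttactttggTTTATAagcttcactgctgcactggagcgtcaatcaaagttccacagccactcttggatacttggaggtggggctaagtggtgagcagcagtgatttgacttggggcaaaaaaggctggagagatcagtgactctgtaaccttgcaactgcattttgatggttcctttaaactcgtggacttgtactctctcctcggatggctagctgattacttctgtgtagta

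Lipc holds 2 copies of AGGTCA on opposite strands, at positions -244 and -232 from the start of transcription, and none of the other promoters shown holds one. Of the 33469 rat promoters in the RefSeq set, 16.2% hold at least 1 copy. Plin2 start 1 holds an E-box at position -67, a motif found in 6.42% of promoters. Angptl4 holds a TATA box on its own strand at position -39, which overlaps a match at -41 on the other strand. Cd36 holds a match on the other strand at position -175, and 14.2% of all promoters hold at least 1 TATAAA. A repeat of 2 copies of AGGTCA in the same direction, with 1 or with 4 bases of any kind between them, was in none of these windows, and in 0.0538% and 0.00598% of all promoters. A match is a run of letters and not a measured binding site.

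Cd36, a scavenger receptor that takes up long-chain fatty acids, was brightest in chimeric livers and higher in CAR KO than in SD rats on PB. In SD controls it stood at 1.61, 1.92, 1.92 and 0.78, and in SD rats on PB at 1.77, 1.49, 1.67 and 1.78. In CAR KO controls it stood at 2.25, 2.42, 1.71 and 2.35, and in CAR KO rats on PB at 3.31, 3.14, 2.44 and 2.20. On PB every CAR KO array lay above every SD array. PB minus control was 0.12 ± 0.276 in SD rats (adjusted p = 0.846) and 0.59 ± 0.276 in CAR KO rats (adjusted p = 0.309), neither past limma's threshold. On PB diet, CAR KO minus SD was 1.09 ± 0.275 (SE, n = 4 and 4, 2.14-fold) with limma's adjusted p = 0.00555. On control diet the same difference was 0.63 ± 0.277 with adjusted p = 0.0959, which was not called. Muscle also uses Cd36, and the mean of 6 muscle markers ran from -5.45 to -5.20 over SD rats on PB and from -5.05 to -4.65 over CAR KO rats on PB, with Myh7, Myl1 and Tnnt3 above background in neither. Of the 3 muscle markers bright enough to test, 2 were called higher in CAR KO rats on PB and 3 on control diet. The medians of the 3 were 1.57 and 1.42. The mean of 13 macrophage markers ran from 1.84 to 2.15 over SD rats on PB and from 1.12 to 1.75 over CAR KO rats on PB. The part of muscle or macrophages in the Cd36 result was not tested. A second Cd36 probe gave 1.43 ± 0.291 on PB diet (adjusted p = 0.00139) and 0.66 ± 0.292 on control diet (adjusted p = 0.0968). In chimeric controls Cd36 ran from 3.86 to 4.90 with a median of 4.53, above every rat array, and the difference from SD controls was 2.87 ± 0.240 (7.31-fold, limma's adjusted p = 5.85e-11). On PB the chimeric arrays ran from 4.02 to 5.18 with a median of 4.56, and the diets overlapped.

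Vldlr, the receptor for very low density lipoprotein, which is known from muscle, heart and adipose tissue, was above background on 0 arrays in all 6 groups, so no fold is given. Its signals ran from -7.74 on a CAR KO control array to -6.05 on a chimeric PB array.

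Angptl4, a secreted inhibitor of lipoprotein lipase, varied widely between arrays of 1 group. It stood at 4.64, 4.18, 3.77 and 4.56 in SD controls and at 2.93, 4.11, 4.37 and 2.85 in SD rats on PB. The difference of -0.73 ± 0.399 did not pass the threshold (limma's adjusted p = 0.329), and the groups overlapped. In CAR KO controls it stood at 5.37, 5.45, 4.31 and 4.09, and on PB at 4.16, 4.78, 5.17 and 4.27, a difference of -0.21 ± 0.400 (adjusted p = 0.845 by limma). On PB diet CAR KO minus SD was 1.03 ± 0.398 (2.05-fold) with limma's adjusted p = 0.0497, at the edge of the threshold. That call held in 3 of 8 cases with an array left out, and was lost without SD PB replicate 1 (or 4) or CAR KO PB replicate 2 (or 3, or 4), with adjusted p up to 0.143. It was also lost in the fit of the 8 rats on PB (adjusted p = 0.0736), in that of all 30 arrays (0.0752), without a filter on dim probes (0.0633), with every probe tested (0.0501) and with the replicate block (0.0576). In chimeric controls it ran from 4.92 to 6.34 with a median of 5.75, above every SD control array, and the difference from SD controls was 1.46 ± 0.356 (2.74-fold, limma's adjusted p = 0.000685). On PB the chimeric arrays ran from 3.90 to 6.03 with a median of 5.28.

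Lipc, hepatic lipase, whose promoter above holds both copies of AGGTCA, is secreted by hepatocytes and acts on lipoprotein remnants and high density lipoprotein. Its spread between rat arrays was small. It stood at 3.84, 3.66, 3.75 and 3.82 in SD controls and at 3.43, 3.54, 3.56 and 3.53 in SD rats on PB. Every PB array lay below every control array. The difference was -0.25 ± 0.072 (0.838-fold) with limma's adjusted p = 0.0622, which missed the threshold; it passed it under quantile normalization (adjusted p = 0.0273), without a filter on dim probes (0.0419) and with a trended and robust spread (0.0402). In CAR KO rats the levels were 3.74, 3.93, 3.85 and 3.66 on control diet and 3.99, 4.04, 3.79 and 3.91 on PB, and the difference was 0.14 ± 0.073 (adjusted p = 0.372 by limma). The response of CAR KO minus that of SD rats was 0.39 ± 0.103 with adjusted p = 0.126 by limma, so it was not called. On PB diet CAR KO minus SD was 0.42 ± 0.072 (1.34-fold, limma's adjusted p = 0.000395). In chimeric controls Lipc ran from 2.63 to 3.25 with a median of 2.75, below every rat array, and on PB from 2.23 to 3.01 with a median of 2.85. The control livers gave a difference from SD controls of -0.88 ± 0.131 (0.544-fold, limma's adjusted p = 1.23e-06). With arrays centred on the hepatocyte markers that difference was -0.31 with adjusted p = 0.0841, and the call was lost.

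Fabp4, a fatty acid binding protein of adipocytes and macrophages, was dim but above background on every array. It stood at -3.05, -3.49, -4.65 and -5.02 in SD controls and at -2.86, -3.34, -3.95 and -3.19 on PB, a difference of 0.72 ± 0.529 (adjusted p = 0.484 by limma). In CAR KO rats it stood at -3.72, -4.77, -4.44 and -4.96 on control diet and at -4.15, -3.72, -4.58 and -2.03 on PB, a difference of 0.85 ± 0.531 (adjusted p = 0.455 by limma). The groups overlapped in both models. In chimeric controls it ran from -3.68 to -3.05 with a median of -3.50 and on PB from -4.44 to -3.36 with a median of -3.67, and on control diet 0.63 ± 0.367 separated it from SD controls (adjusted p = 0.120 by limma, not called). That difference was called under 4 other scalings or background corrections, at 0.50 with normexp, 1.05 with quantile normalization, 1.03 with median centring and 1.20 with hepatocyte marker centring.

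Plin2, which coats lipid droplets, fell in SD rats on PB. It stood at 5.15, 5.11, 4.68 and 5.37 in SD controls and at 4.36, 4.48, 4.47 and 4.66 on PB, and every PB array lay below every control array. The difference was -0.59 ± 0.147 (SE, n = 4 and 4, 0.666-fold) with limma's adjusted p = 0.0389, in a comparison where 1.8% of genes were called lower. The call held in 2 of 8 cases with an array left out, and was lost without SD control replicate 1 (or 2, or 4) or SD PB replicate 1 (or 2, or 3), with adjusted p up to 0.0988. It was also lost with hepatocyte marker centring (-0.46, adjusted p = 0.0612), in the fit of the 8 SD arrays (adjusted p = 0.103) and in that of all 30 (adjusted p = 0.932). In CAR KO rats Plin2 stood at 5.20, 5.35, 5.34 and 4.73 on control diet and at 4.98, 4.85, 4.84 and 4.78 on PB, a difference of -0.29 ± 0.147 (adjusted p = 0.346 by limma). The responses of the 2 models differed by 0.29 ± 0.209 (adjusted p = 0.579 by limma), which was not called. In chimeric mice it ran from 3.52 to 6.59 with a median of 5.63 on control diet and from 3.64 to 5.83 with a median of 4.68 on PB, and the diets overlapped. Chimeric minus SD controls was 0.44 ± 0.390 (adjusted p = 0.309 by limma), which was not called.

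**Figure D2:**
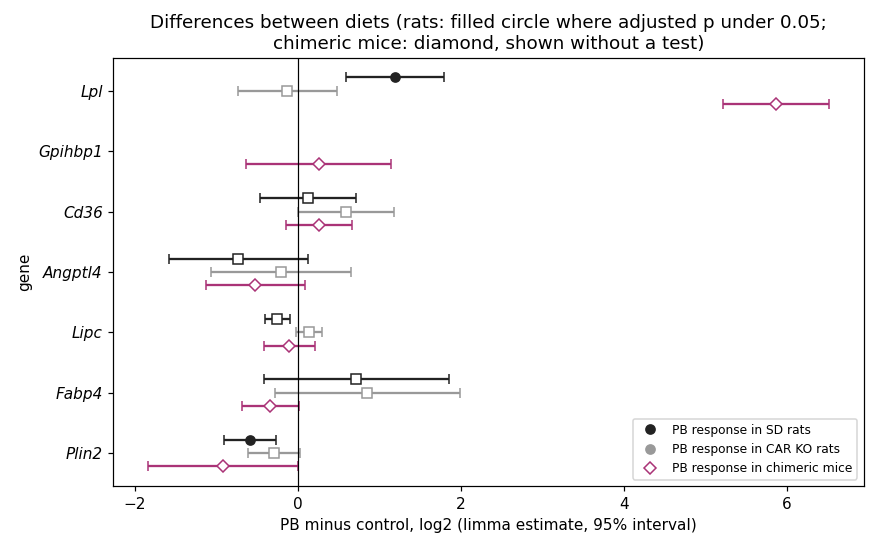
PB minus control for each gene (x axis, log2 difference with its 95% interval from limma; y axis, gene; circles, past the threshold; squares, not past it; diamonds, chimeric mice, shown without a test; Vldlr was above background on no array, and Gpihbp1 on no rat array). Among the rat values drawn, Lpl and Plin2 in SD rats are the filled ones, at 1.20 and -0.59; the diamond of Lpl at 5.86 in chimeric mice uses control signals below background, so its bound is at least 41.1-fold.

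Among chimeric mice, PB minus control was 0.26 ± 0.417 for Gpihbp1, 0.26 ± 0.190 for Cd36, -0.52 ± 0.284 for Angptl4, -0.11 ± 0.147 for Lipc, -0.34 ± 0.164 for Fabp4 and -0.92 ± 0.433 for Plin2 (log2, SE, n = 7 and 7), and the diets overlapped for all 6. The slide that held all 7 controls also held PB replicate 1. There Angptl4 stood -1.84, Plin2 -1.88 and Lipc -0.66 from the mean of the controls, against 3.90, 3.64 and 2.23 as the array's own levels, each the lowest of the 7 on PB. Gpihbp1 stood -0.31 from that mean, so its sign turned within the slide.

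Counted together, 2 of the 6 members tested were called for PB in SD rats by limma with Benjamini-Hochberg adjustment, where 4.3% of all genes were. In CAR KO rats 0 of 6 were called, where 0.205% of all genes were. For the difference of the 2 responses it was 0 of 6, where 0.533% of all genes were called. At the last 2 shares, 0 of 6 says little about the members. With no adjustment, 2857 of 17551 genes passed 0.05 in CAR KO rats, none of them a member. For the difference of the responses 2347 of 17812 genes did, Lpl and Lipc among them. Between the rat models, 0 of 6 members were called on control diet, where 34.1% of genes were, and 4 of 6 on PB diet, where 42.1% were. Those 4 were Cd36, Angptl4 and Lipc, higher in CAR KO rats, and Lpl, lower in them with a difference of -1.20 ± 0.280 (0.434-fold, -0.66 with the normexp correction, limma's adjusted p = 0.00339). Of all genes, 16.9% were called higher and 25.1% lower in CAR KO rats on PB, and each model lay on a slide of its own. Plin2 differed by 0.37 ± 0.147 in the same comparison (adjusted p = 0.0563 by limma) and was called in 6 of 14 other settings, among them normexp, quantile normalization and both other centrings, at 0.40 to 0.52; the count of members called ran from 3 to 5 over the settings.

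Against rats on the same diet, chimeric livers are given here as levels and differences, and the tests against SD controls stand with Cd36, Angptl4, Lipc, Fabp4 and Plin2 above. Among those 5, Cd36 and Angptl4 were called higher, where 38.7% of all genes were, and Lipc lower, where 35.9% were. No slide held both chimeric and rat arrays, so these differences of model cannot be told apart from differences of slide. Against SD rats on PB, Lpl in chimeric livers was 2.46 ± 0.322 higher (5.48-fold), Cd36 3.01 ± 0.240 and Angptl4 1.66 ± 0.355, while Lipc differed by -0.73 ± 0.130. That Lipc value was -0.054 with median centring and -0.23 with hepatocyte marker centring. Against CAR KO rats on PB the differences were 3.66 ± 0.322 for Lpl (12.6-fold), 1.91 ± 0.240 for Cd36, 0.63 ± 0.356 for Angptl4 (-0.093 with quantile normalization) and -1.15 ± 0.130 for Lipc. Against CAR KO controls they were 2.24 ± 0.240 for Cd36, 0.94 ± 0.356 for Angptl4 (0.24 with quantile normalization), -0.91 ± 0.131 for Lipc and 1.05 ± 0.368 for Fabp4. The estimate for Plin2 lay between -0.27 and 0.44 in the 4 comparisons with rats. Over all genes 72.7% were called against SD rats on PB, 70.3% against CAR KO controls, 73.3% against CAR KO rats on PB and 18.9% for the chimeric minus the SD response, and nothing is read from these for the members.

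The pattern of Lpl over the 6 groups was most like that of Ugt2b7, App, Cdca3, Hebp2 and Cyp1a1, out of 10755 named genes compared. Likeness was the root mean square difference of the 6 group means after each gene was centred, and it was 0.74, 0.83, 0.88, 0.93 and 0.98 on the log2 scale in that order. App, the amyloid precursor protein gene, was above background on every array and stood at 1.40 in SD controls, 3.21 in SD rats on PB, 1.48 and 1.71 in CAR KO rats on control diet and PB, 1.10 in chimeric controls and 4.24 in chimeric mice on PB. Cdca3, a cell cycle gene, stood at -3.43, -1.96, -3.07, -3.59, -4.49 and -1.57 in the same order. Cdca3 was above background on every rat array, on 4 of 7 chimeric control arrays and on 7 of 7 on PB. Ugt2b7, a glucuronosyltransferase, and Hebp2, a heme binding protein, were above background on 0 of 7 chimeric control arrays and 7 of 7 on PB. Over SD control, SD PB, CAR KO control and CAR KO PB, Ugt2b7 was above background on 1, 1, 2 and 1 of 4 arrays. In the same groups Hebp2 was above it on 4, 3, 1 and 2 and Cyp1a1 on 1, 3, 2 and 0. Lpl was above background on every rat array. Over rats, the likeness of these genes therefore sets Lpl in part beside signals below background. Cyp1a1, a cytochrome P450 that oxidises aromatic hydrocarbons, was above background on 1 of 7 chimeric control arrays and 5 of 7 on PB.

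**Figure D3:**
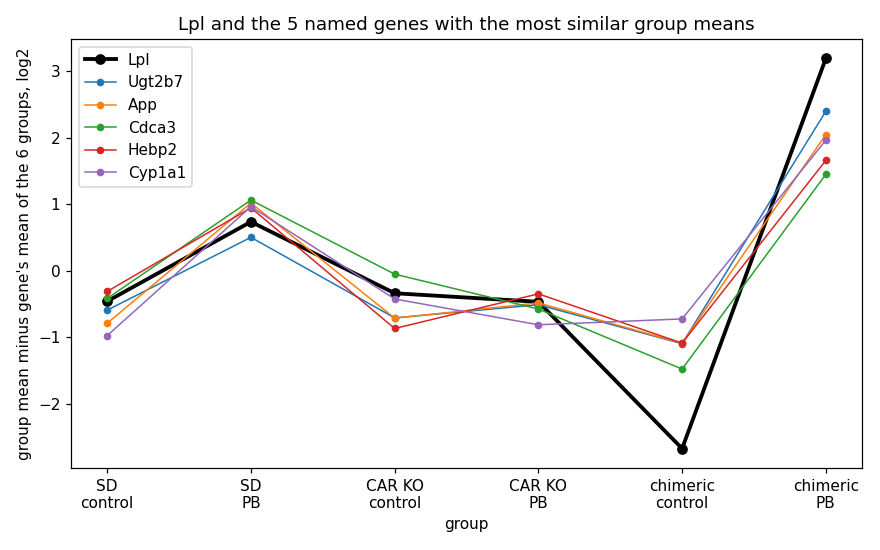
Group means of Lpl and of the 5 named genes with the smallest root mean square difference from it (y axis, log2 level minus the gene's own mean over the 6 groups; x axis, group). The genes were picked for this likeness, so the shared shape is not a result; signals below background are plotted as measured, and in the rat groups these include most Ugt2b7 and Cyp1a1 arrays.

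Among partners and regulators of lipoprotein lipase, 3 of 11 genes tested were called lower in SD rats on PB and 0 higher. Of all genes, 1.8% were called lower and 2.5% higher. The median of the 11 was -0.22 against -0.02 for all genes. Apoa5, which promotes lipolysis by the lipase, fell by 0.42 ± 0.084 (adjusted p = 0.0119, limma). Apoc2, its cofactor, fell by 0.33 ± 0.086 (adjusted p = 0.0463 by limma). Apoc3, which inhibits the lipase, fell by 0.29 ± 0.063 (adjusted p = 0.0190 by limma). Whether calls of list genes, here and below, hold with arrays left out or in other fits was not examined. In CAR KO rats 0 of 11 were called, where 0.205% of all genes were, and the median was -0.02. At that share, 0 calls in a list of this size says little. All 7 chimeric control arrays lay on 1 slide with 1 PB array, and the other 6 PB arrays lay on another slide. Diet and slide therefore largely coincide, and the part of slide in chimeric differences of list genes, here and below, was not tested. In chimeric mice, given as a description without a test, the median of the 11 was -0.20 against 0.06 for all genes. The genes named next were picked for passing the threshold there, and no test is read from it. Lmf2, a homologue of the lipase maturation factor, differed by 0.54 ± 0.152, Apoc3 by -0.43 ± 0.118 and the protease gene Furin by -0.29 ± 0.110.

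Of genes for uptake of fatty acids and lipoproteins, 20 were tested in SD rats. Acsl3, an acyl-CoA synthetase, rose by 0.56 ± 0.137 (adjusted p = 0.0354), and Slc27a1, a fatty acid transport protein, fell by 0.37 ± 0.093 (adjusted p = 0.0392, both limma), while 18 were not called. Of all genes, 2.5% were called higher and 1.8% lower in SD rats. In CAR KO rats 0 of 20 were called, where 0.205% of all genes were. In chimeric mice, given without a test, the median of the 17 genes was 0.10 against 0.06 for all genes. The genes named next were picked for passing the threshold there, and diet and slide largely coincide for them too. Fabp2, a fatty acid binding protein best known from intestine, differed by 1.76 ± 0.221, Fabp5 by 0.95 ± 0.311 and Acsl3 by 0.58 ± 0.183. Scarb1, the receptor for high density lipoprotein, differed by -0.84 ± 0.122.

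Of lipid droplet genes, 0 of 14 were called in SD rats, where 4.3% of all genes were, and 0 of 14 in CAR KO rats, where 0.205% were. In chimeric mice, given without a test, the median of the 12 genes was 0.26 against 0.06 for all genes. There 4 of 12 passed the threshold as higher and 1 as lower, where 19.3% and 23.4% of all genes did. This is the comparison the set was chosen on, so no test is read from these counts. The genes named next were picked for passing the threshold there, and diet and slide largely coincide for them too. Mgll, a monoglyceride lipase, differed by 1.37 ± 0.47, Fitm2, which partitions fat into droplets, by 1.14 ± 0.137, the droplet protein gene Cidea by 0.87 ± 0.207, the acyltransferase gene Dgat1 by 0.50 ± 0.148 and Hsd17b13, a droplet protein, by -0.47 ± 0.176. Mgll ranged from -2.47 to 0.45 over chimeric control arrays and from -0.86 to 1.82 over those on PB, and these overlap. Of the PPAR and LXR regulators, 0 of 12 were called in either rat model, where 4.3% of all genes were in SD and 0.205% in CAR KO rats. In chimeric mice Rxrg, picked out of 10 genes for passing the threshold, differed by -0.57 ± 0.167. For the difference of the CAR KO and SD responses, 0 genes of the 4 lists were called, where 0.533% of all genes were. The chimeric response less the SD response is given without a test. It was 2.04 for Fabp2, 0.63 for Slc27a1, 0.70 for Fitm2 and -0.64 for Scarb1 on the log2 scale. These genes were picked for passing a threshold and do not stand for their lists. The medians of the uptake and droplet lists were 0.09 and 0.38, against 0.08 for all genes.

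**Figure D4:**
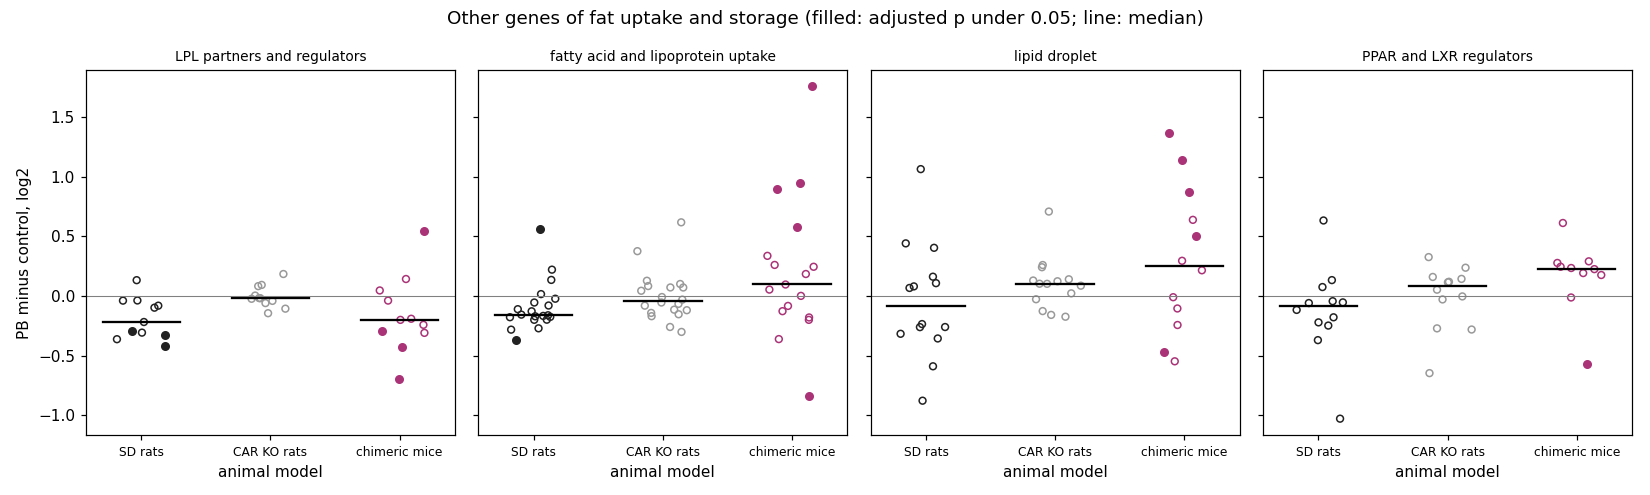
PB minus control for the genes tested in 4 lists (y axis, log2 difference; x axis, animal model; 1 point per gene, filled where limma's adjusted p was under 0.05; line, median). The CAR KO columns hold no filled point, and 0.205% of all genes were called in those rats. The chimeric columns show the comparison the set was chosen on, so no test is read from their filled points. Diet and slide largely coincide in chimeric mice. The chimeric columns rest on 7 arrays per diet and the rat columns on 4, so counts of filled points do not compare the models.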

How the data were processed

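Per the labels' protocols, RNA from liver kept in RNAlater was labelled with Cy3 and hybridised in 1 colour. Per the file headers, the arrays were read by Agilent Feature Extraction 10.7.3.1, and 24 of 30 headers name the rn4 build. The deposited intensity values are the scanner software's processed signal, per the file headers, with background subtracted and no scaling from array to array. The authors' deposited series matrix holds log2 values with a correlation of 1 with log2 of that signal on every array. Its direction is that of the signal, its column medians run from -4.22 to -3.38, and how it was centred is not stated in the sources used; it served as an alternative only.

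Control spots (4259) were left out, outlier spots set missing, spots averaged per probe, log2 taken and each array's 75th percentile subtracted. No other spot was saturated (0). Names came through transcript accessions in a RefSeq table (18004 of 30367 probes, 15170 symbols). Where a gene had several probes, the brightest on average across the 16 rat arrays was used, leaving 26912 genes and unnamed transcripts. Testing was limited to genes well above background on at least 75% of the arrays of 1 group compared. Tests were limma (version 3.58.1, lmFit then eBayes, R version 4.3.3), with 1 fit for the 16 rat arrays, 1 for the 14 chimeric arrays, and 1 of all 30 for chimeric against rats. Adjusted p is Benjamini-Hochberg over all genes tested, with a threshold of 0.05. Errors of differences are SEs and those of levels are SDs. A group with no array above background has only a bound ("at least"): the brighter group's mean against the dim group's mean after each dim value was raised, where lower, to the lowest signal above background on its array. Precision is limited by the number of arrays. The fit was tested on simulated data.

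The members and lists were chosen with earlier results of these data known. That the rule's rise is the one on PB in chimeric mice was read from the values. Named genes are the members, the 5 genes most like Lpl, the list genes past the threshold for PB or for a difference of PB responses, and Nr1i3; a few list genes are counted but not reported by name here. Alternatives were other background corrections, scalings, filters, probe choices, spread models, fits, blocks and leaving out arrays. The planned normexp correction used median spot signals, since the files used here hold no mean signal. Unnamed probes were first kept one by one and then merged by transcript after both had been seen; both versions are given.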

Additional observations from a re-analysis of the deposited data

Results flagged for a closer look

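Over 54 sets of arrays (9 probes in 6 groups), 2 held an array far from the others by Dixon's test, which by chance marks about 1 set in 20. The second Cd36 probe read -1.38 in SD PB replicate 2, against -1.06 to -0.99 on the other arrays of that group. Plin2 read 3.52 in chimeric control replicate 6, against 5.40 to 6.59 on the others; without that array the Plin2 difference for PB in chimeric mice, the comparison the genes were chosen on, was -1.26 instead of -0.92.

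The PB response of Lpl was 4.67 larger on the log2 scale in chimeric mice than in SD rats, from signals of chimeric controls below background. This is the contrast on which the set was chosen and is given without a test; 18.9% of 17255 genes were called in it.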

How the results depend on the processing

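Members called for PB in SD rats numbered 2, and 1 with hepatocyte marker centring (Lpl), 1 with the replicate block (Lpl), 0 in the fit of all 30 arrays, 0 in that of the groups compared, and 0 to 2 with an array left out. The count rose to 3, with Lipc added, under quantile normalization, without a filter on dim probes and with a trended and robust spread. Between CAR KO and SD controls the 0 calls became 2 with hepatocyte marker centring (Cd36 and Lipc) and 1 with array weights (Cd36). For PB in chimeric mice, the comparison the genes were chosen on and from which no test is read, the 1 value past the threshold became 2 with median centring (Lpl and Cd36), 2 in the fit of all 30 arrays (Lpl and Plin2) and 1 to 2 with an array left out (Plin2 added without control replicate 6 or PB replicate 2), and for their difference from SD rats 2 with array weights (Lpl and Lipc). The replicate block changed 2 further calls to misses, Angptl4 between the rat models on PB diet (1.03, adjusted p = 0.0576) and Angptl4 between chimeric and CAR KO controls (0.84, adjusted p = 0.0565).

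Signs that turned, in nearly all cases of differences not past the threshold, were as follows. With normexp, whose offset lifts dim signals, they were Lpl in chimeric against SD controls (0.00727) and against CAR KO controls (0.080), both called as reported, Lpl in CAR KO against SD controls (-0.073), and Fabp4 in chimeric livers on PB against SD (0.21) and CAR KO (0.36, called). With quantile normalization they were Plin2 in chimeric against SD (-0.18) and CAR KO controls (-0.34) and SD on PB (-0.51), Fabp4 on PB against SD (0.21) and CAR KO (0.48), and Angptl4 on PB against CAR KO (-0.093). With median centring they were Lipc in CAR KO against SD controls (-0.00404) and for PB in chimeric mice (0.17), and on PB Fabp4 against SD (0.25) and CAR KO (0.51) and Plin2 against CAR KO (0.38). With hepatocyte marker centring they were, on PB, Fabp4 against SD (0.080) and CAR KO (0.22) and Plin2 against CAR KO (0.093). With array weights they were Fabp4 for the difference of the rat responses (-0.14), Lipc in CAR KO against SD controls (-0.00519), Gpihbp1 (-0.10) and Lipc (0.10) for PB in chimeric mice, Plin2 on PB against CAR KO (0.14), and Gpihbp1 (-0.19) and Plin2 (0.10) for the difference of chimeric and SD responses. With the slide as a block they were Gpihbp1 for PB in chimeric mice (-0.31) and, for that difference, Gpihbp1 (-0.37), Cd36 (-0.00124), Angptl4 (-1.11) and Lipc (-0.40). The causes were not tested. Of values for single members, 867 kept direction and side of the threshold under such settings, 24 newly passed it, 17 lost it and 31 turned sign; with an array left out the counts were 799, 6, 19 and 24.

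With an array left out, signs turned within these ranges: Cd36 for PB in SD rats -0.14 to 0.24, Lpl -0.31 to 0.021 and Angptl4 -0.45 to 0.00304 for PB in CAR KO rats, Fabp4 -0.40 to 0.46 for the difference of the rat responses, Lpl -0.061 to 0.30, Lipc -0.016 to 0.073 and Plin2 -0.058 to 0.22 between rat controls, Fabp4 -0.81 to 0.038 between rats on PB, Gpihbp1 -0.015 to 0.45 for PB in chimeric mice, Plin2 -0.10 to 0.26 and Fabp4 -0.46 to 0.39 in chimeric livers on PB against SD and CAR KO, and Gpihbp1 -0.11 to 0.39 and Angptl4 -0.030 to 0.48 for the difference of chimeric and SD responses. Lpl for PB in chimeric mice stayed between 5.68 and 6.08.

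Calls over all genes moved more: 732 for PB in SD rats against 186 to 3523 over the other settings, 36 against 0 to 1712 in CAR KO rats, 95 against 39 to 195 for their difference, 6038 against 2120 to 7502 and 6978 against 2925 to 9029 between rat models on control and PB diet, 6168 against 158 to 8608 in chimeric mice and 3254 against 32 to 6466 for their difference from SD rats. With unnamed probes kept one by one, the count was 731 in SD and 29 in CAR KO rats. Hepatocyte marker centring took the share of higher calls from 58.2% to 91.7% in SD rats and from 42.2% to 92.5% between rat controls, and moved the median of all genes by over 0.1 there, to 0.10 and 0.18. Median centring took the share in chimeric mice from 45.3% to 70.8% with a median of 0.35. The slide was a block only where chimeric diets were compared, since each rat slide held 1 model. Arrays were left out only from groups compared. Signal over background limits Gpihbp1 in rats and Lpl in chimeric controls to bounds, and Vldlr has no fold at all. Replicate numbers were not taken to pair the samples, since not every same-numbered pair deviated together: correlations ran from -0.10 to 0.08 in SD rats, -0.20 to 0.08 in CAR KO rats and -0.21 to 0.78 in chimeric mice, where 4 of 7 pairs were over 0.1 and 3 matched best with their own number.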
